A study of Mus musculus with 2 samples.

Results

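Genes of iron storage, iron export, iron uptake and haem breakdown were followed in single cells of the mouse mitral valve. They were chosen by name from the 32285 genes of the count tables, and all 8 were found there. They are Hmox1 and Blvrb for haem breakdown, Slc40a1 for iron export, Fth1 and Ftl1 for iron storage, Tfrc and Slc11a1 for iron uptake and movement, and Hp, which codes for the haemoglobin-binding protein haptoglobin. Cells came from the mitral valve leaflets of WT mice (Fbn1+/+) and of mgR mice, which are homozygous for the mgR allele of Fbn1 and make too little fibrillin-1, the microfibril protein altered in Marfan syndrome. The mgR allele is carried in every tissue, so these data do not tell a change that starts in the valve from one that starts elsewhere. WT controls are described both as littermates and as a purchased C57BL/6J stock. Mice of both genotypes were 12 weeks old. Viable cells were sorted after digestion with collagenase and elastase, and 1 library per genotype was made with 10x Genomics 3-prime chemistry, which counts captured RNA molecules by unique molecular identifiers (UMIs). The single-cell data carry n = 3 in the study's description, and whether these mice were pooled in each library was not given in the sources used here.

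Macrophages clear worn red cells and cell debris and handle the iron that comes from them. Haem is opened by haem oxygenase-1 (Hmox1), and the resulting biliverdin is reduced by a biliverdin reductase. Blvra and Blvrb each code for a biliverdin reductase, and Blvrb is not taken here as the enzyme that acts on that biliverdin. The released iron is stored in ferritin, a shell of heavy chains (Fth1) and light chains (Ftl1), or leaves the cell through ferroportin (Slc40a1). The transferrin receptor (Tfrc) brings iron in, and Slc11a1, also called Nramp1, moves metal ions out of the phagosome of phagocytes. Iron regulatory proteins bind hairpins named iron-responsive elements (IREs) when cell iron is low: in the 5-prime UTR this blocks translation of ferritin and ferroportin, and in the 3-prime UTR it protects the Tfrc transcript from decay. The counts given here are of transcripts and say nothing of that step of translation.

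These hairpins are printed as a sequence feature of the genes. They are known elements of the ferritin, ferroportin and Tfrc transcripts, so matches there are a description and no independent result. The search took the 6-base loop CAGTGN, with any base but G at its end, closed by a stem of 5 paired bases (G-T pairs allowed) with an unpaired C on its 5-prime side. Only the transcript strand of GENCODE transcripts on GRCm38 was read. The 5-prime UTR of 23 of 21200 genes with such a region held a match (0.108%), and the 3-prime UTR of 110 of 21849 genes did (0.503%). Among the 8 genes the search found Fth1, Ftl1 and Slc40a1 in the 5-prime UTR and Tfrc in the 3-prime UTR, the latter with 4 hairpins. Each sequence runs 5′ to 3′ on the gene's own strand, 30 bases long, with the loop in capitals.
Fth1 5-prime UTR, chr19:9982732-9982761, plus strand: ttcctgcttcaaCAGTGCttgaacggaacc
Ftl1 5-prime UTR, chr7:45459778-45459807, minus strand: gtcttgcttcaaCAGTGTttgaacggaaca
Slc40a1 5-prime UTR, chr1:45925464-45925493, minus strand: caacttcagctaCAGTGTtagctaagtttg
Tfrc 3-prime UTR, chr16:32631219-32631248, plus strand: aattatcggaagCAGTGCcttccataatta
Tfrc 3-prime UTR, chr16:32631598-32631627, plus strand: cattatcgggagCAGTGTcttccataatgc
Tfrc 3-prime UTR, chr16:32631663-32631692, plus strand: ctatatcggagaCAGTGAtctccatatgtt
Tfrc 3-prime UTR, chr16:32631710-32631739, plus strand: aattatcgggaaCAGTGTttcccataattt
Both ferritin chains and the exporter thus carried 1 hairpin near the start of the transcript, and the receptor carried several after its stop codon. A match is a description of letters and was not tested as a binding site.

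On GRCm38, Hmox1 lies on chromosome 8 (75093621 to 75100589, plus strand) and Hp on the same chromosome (109575128 to 109579172, minus strand). Blvrb (27447978 to 27466144, plus strand) and Ftl1 (45457944 to 45459884, minus strand) lie on chromosome 7. Slc40a1 (45908068 to 45926523, minus strand) and Slc11a1 (74375195 to 74386062, plus strand) lie on chromosome 1, Fth1 on chromosome 19 (9980598 to 9985098, plus strand) and Tfrc on chromosome 16 (32608920 to 32632794, plus strand). Ftl1 is the only member whose exons overlap those of other annotated genes, Gm22133 on its own strand and Gm10252 on the other. Ftl1-ps1 on chromosome 13 is named as a copy of Ftl1. How reads were divided between the 2 genes was not tested, so Ftl1 counts are given as uncertain.

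The WT library held 1104 barcodes and 5381844 UMIs, and the mgR library 3802 barcodes and 28215539 UMIs, of which 2 barcodes occurred in both. The filters of the study, 200 to 5000 genes and at most 10% mitochondrial UMIs, kept 875 WT and 3438 mgR cells with medians of 5033 and 7370 UMIs. Macrophages were cells with 10 or more UMIs of C1qa, C1qb and C1qc together, fibroblasts had 10 or more of Col1a2, Col3a1 and Dcn, and endothelium had 2 or more of Pecam1 and Cdh5. Cells that met more than 1 rule, 33 in WT and 348 in mgR, were put in no class, which left 224 and 1539 macrophages, 322 and 879 fibroblasts and 29 and 150 endothelial cells. Markers outside the rules matched these names, since Csf1r was found in 94.6% and 96.0% of macrophages, Lum in 97.8% and 96.2% of fibroblasts, and Egfl7 in 55.2% and 75.3% of endothelial cells. The 28 WT and 304 mgR cells that met both the fibroblast and the endothelium rule held Egfl7 in 71.4% and 85.2% and Lum in 53.6% and 51.6%, and are given as a set of their own. The methods name male mice only, yet 28.1% of WT and 60.8% of mgR cells held UMIs of Xist and none of 4 Y-linked genes, and 38.5% and 21.1% held the reverse.

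With 1 library per genotype there was no replicate check and no test. Levels are UMIs of a gene per 1000000 UMIs of the summed cells (CPM), and every interval is a 95% interval that covers counting error only. Where no UMI was seen, 3 UMIs were used as the upper limit. Values were compared between classes and libraries gene by gene. A ratio between genes was taken only for Fth1 and Ftl1, and the uncertainty of Ftl1 counts carries into it. Counting at the 3-prime end gives 1 tag per molecule whatever the length of the transcript.

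Most members were higher in macrophages than in the other main classes, though neutrophils or monocytes matched or passed them for some. All 7 that reached 100 UMIs were at least 2 times as high in macrophages as in fibroblasts in both libraries, against 14.7% of the 10117 genes compared. Against endothelium this held for 6 of 7, with 9.17% of 8440 genes as background, and Slc40a1 could not be placed there because 0 UMIs in the 29 WT endothelial cells allow up to 25.5 CPM. Macrophages held 91.4% of all Hmox1 UMIs in WT and 94.3% in mgR, but 25.6% and 44.8% of the cells.

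**Figure D1:**
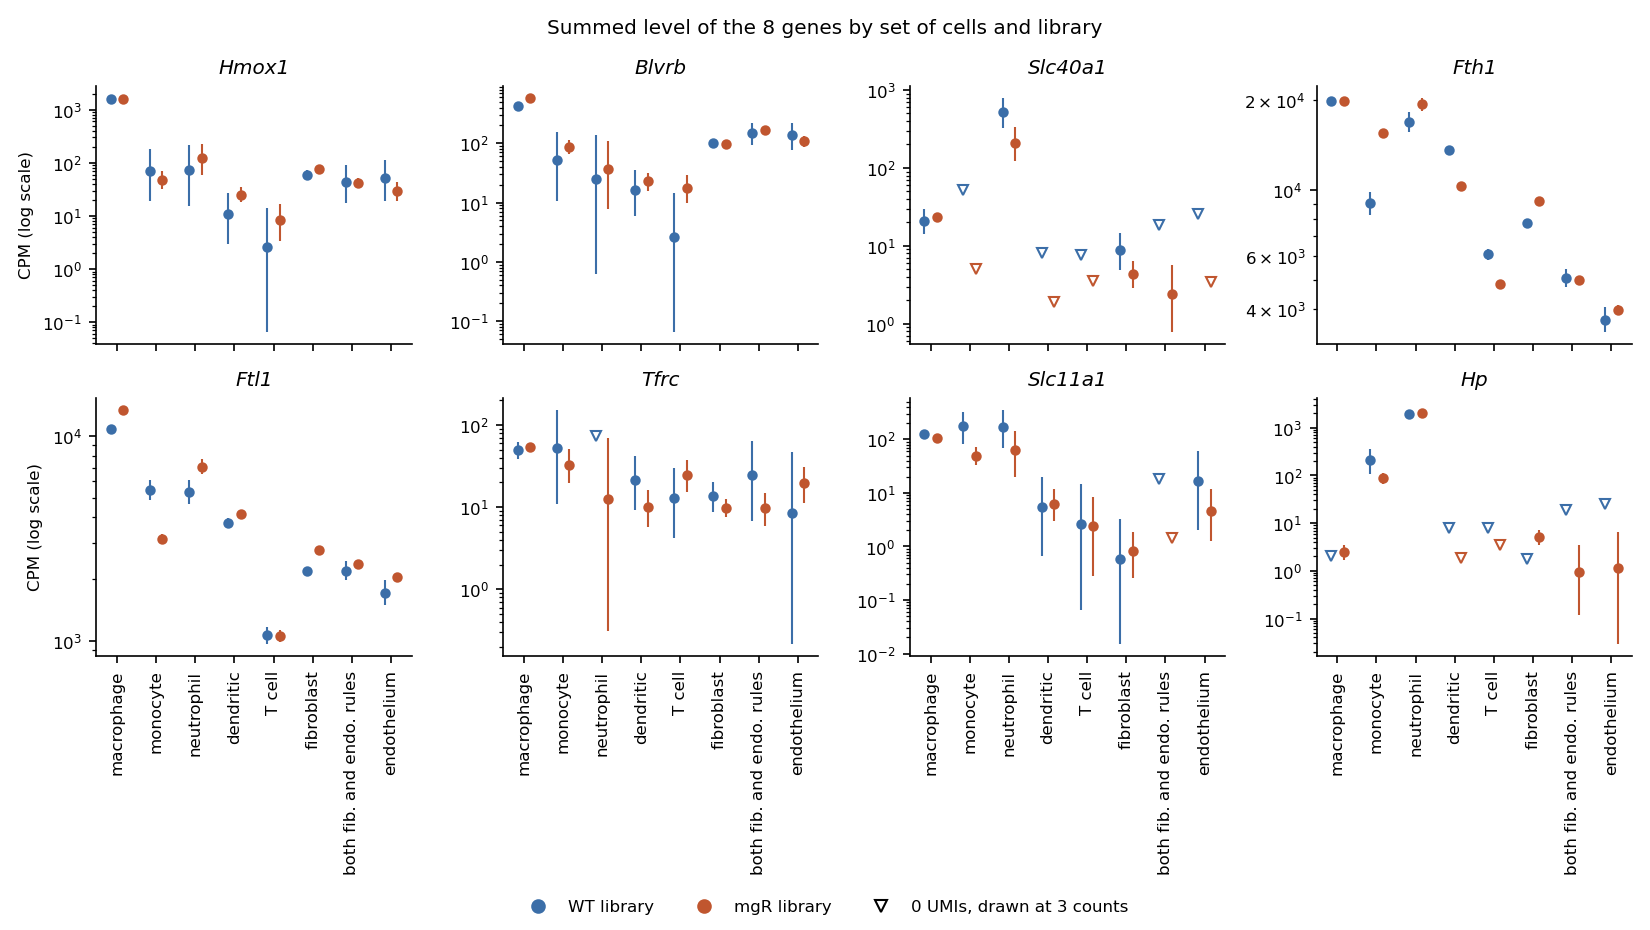
CPM of each gene (vertical axis, log scale, its own range in each panel) in 8 sets of cells (horizontal axis), with 1 point per library and 95% counting intervals; open triangles mark 0 UMIs and sit at 3 counts. Of the sets drawn, macrophages are highest in Hmox1, Blvrb and Ftl1 in both libraries, and neutrophils are highest in Hp and Slc40a1. Red cells are not drawn.

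Hmox1, the gene for the enzyme that opens the haem ring, separated macrophages from fibroblasts more than any compared member but Slc11a1. In macrophages it stood at 1612 CPM in WT (2328 UMIs, 1547 to 1678) and 1576 CPM in mgR (21199 UMIs, 1555 to 1597). In fibroblasts it stood at 59.2 and 75.8 CPM, so that the macrophage level was 27.2 times (22.3 to 33.6) the fibroblast level in WT and 20.8 times (19.0 to 22.8) in mgR. Endothelium held 6 and 26 UMIs, or 51.0 CPM (18.7 to 111) and 29.8 CPM (19.5 to 43.7). Neutrophils, monocytes, fibroblasts and endothelium had overlapping intervals in the WT library and no order among them can be given there. Dendritic cells (10.8 and 25.3 CPM) and T cells (2.58 and 8.28 CPM) had the lowest values of the 8 sets drawn. The dendritic interval in WT (2.93 to 27.6) overlapped those of T cells, neutrophils, monocytes, endothelium and the cells that met both rules. In mgR (18.04 to 34.4) it overlapped those of monocytes, endothelium and the cells that met both rules, so the place of dendritic cells among these is not settled.

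Cells differed widely in Hmox1 even within the macrophage class. The median WT macrophage had 722 CPM with an interquartile range of 131 to 2058, and the median mgR macrophage 1105 CPM with 247 to 2444. In WT, the 10 leading cells carried 26.4% of the class's Hmox1 UMIs, against 3.78% in the much larger mgR class. After each cell had been thinned to 2000 UMIs, 64.7% of WT (57.9 to 71.0) and 72.3% of mgR macrophages (69.9 to 74.5) held an Hmox1 UMI, against 75.9% and 86.3% before thinning. T cells, which should lack the gene, gave 0 of 83 cells in WT (upper limit 3.61%) and 3 of 145 cells in mgR (2.07%). Median depth was 6013 and 8325 UMIs in macrophages and 4144 and 5061 in T cells.

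Blvrb was less selective. Macrophages had 420 CPM in WT (606 UMIs, 387 to 454) and 575 CPM in mgR (7732 UMIs, 562.1 to 588), which was 4.10 times and 5.84 times the fibroblast level of 102 and 98.5 CPM. Cells that met both the fibroblast and the endothelium rule had 149 and 169 CPM. Monocytes had 52.4 CPM in WT from 3 UMIs and 87.2 CPM in mgR, and dendritic cells 16.2 and 22.7 CPM. Neutrophils held 1 and 3 UMIs. Red cells, other cells of no class with 50 or more haemoglobin UMIs, were few. Their 3 WT cells had 201 CPM (65.3 to 469) and their 5 mgR cells 504 CPM (312 to 770). These intervals overlapped those of macrophages, so no order between the 2 sets is given for Blvrb. Thinned macrophages held a Blvrb UMI in 51.4% (WT) and 60.5% (mgR) of cells, and T cells in 0 of 83 and 5 of 145.

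Slc40a1, the only known iron exporter of vertebrate cells, was scarce. Macrophages held 30 UMIs in WT, or 20.8 CPM (14.0 to 29.7), and 312 UMIs in mgR, or 23.2 CPM (20.7 to 25.9). Fibroblasts had 15 UMIs (8.88 CPM) and 27 UMIs (4.35 CPM), and endothelium, T cells, monocytes and dendritic cells had 0 UMIs in both libraries. Its UMIs sat in few macrophages: 8.93% of WT and 11.2% of mgR cells held 1 or more before thinning, and 5.50% and 2.90% after it.

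The highest Slc40a1 level was in neutrophils, cells with 20 or more S100a8 and S100a9 UMIs and no class. Their 16 WT cells held 21 UMIs, or 521 CPM (322 to 796), and their 37 mgR cells 17 UMIs, or 211 CPM (123 to 339). This was 25.1 times (13.6 to 45.3) the macrophage level in WT and 9.12 times (5.24 to 14.8) in mgR. The neutrophils were shallow, at medians of 2227 and 1825 UMIs, and macrophage markers in them were low: Adgre1 had 0 and 4 UMIs and Mrc1 0 and 1. A neutrophil marker, Csf3r, was found in 100% and 83.8% of them. Haemoglobin stood at 645 CPM in the WT and 76499 CPM in the mgR neutrophils, where 2.70% of cells held 10 or more haemoglobin UMIs. Those UMIs lower the CPM of the other genes in the mgR set.

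Ferritin transcripts were the most abundant of the group. Fth1 stood at 19804 CPM in WT macrophages (28607 UMIs) and 19901 CPM in mgR macrophages (267683 UMIs), and Ftl1 at 10807 and 13352 CPM (15611 and 179600 UMIs). Together both chains took 3.06% of all WT and 3.33% of all mgR macrophage UMIs, against 0.995% and 1.19% in fibroblasts and 0.541% and 0.602% in endothelium. All macrophages held UMIs of each chain, also after thinning. Fth1 was 2.55 times the fibroblast level in WT and 2.17 times in mgR, and Ftl1 4.96 and 4.82 times, so the light chain separated the classes more than the heavy chain did. Neutrophils came close to macrophages in Fth1 (16891 and 19358 CPM), with ratios of 0.853 (0.789 to 0.920) and 0.973 (0.925 to 1.02), but not in Ftl1, where the ratios were 0.493 and 0.529.

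The balance of the chains therefore differed between cells. Macrophages had 1.83 Fth1 UMIs per Ftl1 UMI in WT (1.80 to 1.87) and 1.49 in mgR (1.48 to 1.499), and endothelium 2.15 (1.81 to 2.55) and 1.96 (1.85 to 2.07). Fibroblasts were more tilted to the heavy chain, at 3.56 (3.43 to 3.69) and 3.31 (3.25 to 3.37), and T cells most of all in WT, at 5.74 (5.17 to 6.39), with 4.58 (4.26 to 4.93) in mgR. Monocytes, cells with 3 or more UMIs of Ly6c2, Plac8 and Chil3, did not keep 1 place in this order, with 1.66 in 12 WT cells and 4.91 in 70 mgR cells. In 7 of the 8 sets drawn, the mgR value was the lower of the pair, and in 3 of these 7, neutrophils, endothelium and the cells that met both rules, the 2 intervals overlapped.

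**Figure D2:**
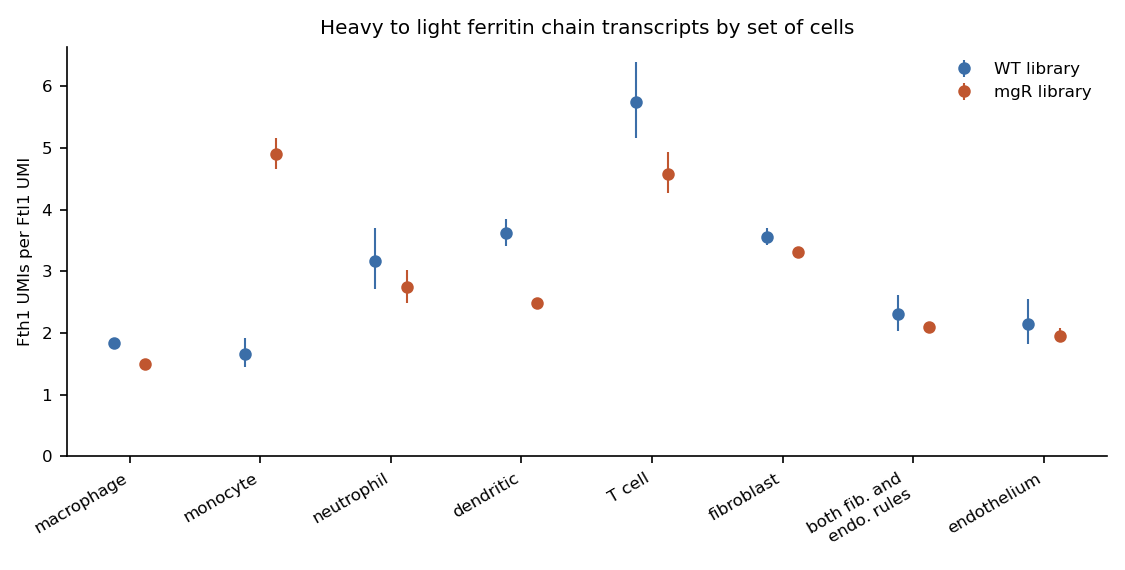
Fth1 UMIs per Ftl1 UMI (vertical axis, from 0) in 8 sets of cells (horizontal axis), 1 point per library with 95% counting intervals. Macrophages sit at 1.83 in WT and 1.49 in mgR, below fibroblasts at 3.56 and 3.31, and monocytes are the set in which the mgR point lies above the WT point.

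Tfrc was low in every class. Macrophages had 72 UMIs in WT, or 49.8 CPM (39.0 to 62.8), and 735 UMIs in mgR, or 54.6 CPM (50.8 to 58.7). Fibroblasts had 13.6 CPM (8.63 to 20.4) and 9.83 CPM (7.52 to 12.6), which put macrophages 3.66 times and 5.56 times higher. The share of thinned macrophages with a Tfrc UMI was 8.72% (5.33 to 13.3) in WT and 9.44% (8.01 to 11.02) in mgR, and in T cells, which also use this receptor, 3.61% and 4.14%.

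Slc11a1 set macrophages apart from fibroblasts more than any other member. Macrophages had 179 UMIs in WT, or 124 CPM (106 to 143), and 1431 UMIs in mgR, or 106 CPM (101 to 112). Only 1 UMI in WT and 5 in mgR came from fibroblasts, and the macrophage level was 132 times (56.4 to 407) the fibroblast level in mgR. In WT, monocytes with 175 CPM (83.8 to 321) and neutrophils with 174 CPM (69.8 to 358) had intervals that overlapped that of macrophages. In mgR, monocytes had 49.6 CPM (33.2 to 71.2), below the macrophage interval.

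Hp followed another pattern. Neutrophils had 1910 CPM in WT (77 UMIs, 1507 to 2387) and 2028 CPM in mgR (163 UMIs, 1728 to 2364), and they held 74.8% and 57.2% of all Hp UMIs from 1.83% and 1.08% of the cells. Monocytes came next at 210 CPM (108 to 366) and 87.2 CPM (64.9 to 115). WT macrophages held 0 Hp UMIs, so neutrophils were at least 920-fold higher there with 3 counts taken for 0, and the lower limit of the counting interval of that ratio was 730.1. The 33 UMIs of mgR macrophages came from 11 cells and the 32 UMIs of mgR fibroblasts from 5 cells, and no Hp UMI was found in T cells or dendritic cells of either library.

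Over all kept cells, several members were higher in the mgR library. The mgR to WT ratio of CPM was 1.77 (1.65 to 1.90) for Blvrb, 1.598 (1.58 to 1.62) for Ftl1, 1.52 (1.45 to 1.58) for Hmox1 and 1.20 (1.19 to 1.21) for Fth1, and 0.475 (0.378 to 0.601) for Hp. The macrophage share of kept cells was 25.6% in WT and 44.8% in mgR, and the neutrophil share was 1.83% and 1.08%. How sorting and capture bear on those shares was not tested.

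Within macrophages the genotypes were closer. A gene counted as past the fold when its ratio was 1.5 or more either way and its interval left out 1, among genes with 100 or more UMIs. No member of the 7 compared was past it, and over all 7953 genes 9.49% were higher in mgR and 4.40% lower. With so few members, a count of 0 lies near such shares, here and in the classes below. No contrast with other genes is read from it. The median gene had a ratio of 1.10 in macrophages, or 0.13 on the log2 scale, and 1.10 was also the median of the 7 members. Blvrb had the largest ratio, 1.37 (1.26 to 1.49), and Ftl1 had 1.24 (1.22 to 1.26), both above the median gene. Tfrc had 1.10 (0.860 to 1.42) and Slc40a1 1.12 (0.767 to 1.68), with intervals that held 1.

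Hmox1 had a ratio of 0.978 (0.937 to 1.02), Fth1 1.005 (0.993 to 1.02) and Slc11a1 0.859 (0.734 to 1.01). Relative to the median gene, these ratios became 0.893, 0.918 and 0.784, so that Fth1 changed sides of 1, while Blvrb became 1.25 and Ftl1 1.13. Without the 5 leading cells of each library Hmox1 had 1.10 and Slc40a1 1.61, and Slc40a1 had 0.668 after thinning. Taking 5 of 224 WT and 5 of 1539 mgR macrophages by itself raises a ratio. The intervals of both genes held 1 before the cut, and no direction is given for either. Ftl1-ps1 had 0.594 (0.489 to 0.728) from 120 and 664 UMIs and thus lay on the other side of 1 from Ftl1.

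The libraries also differed in sex-linked transcripts, whose part in the ratios was not tested beyond the split given here. Among macrophages with Xist UMIs alone (76 WT and 1039 mgR cells), Fth1 had a ratio of 1.19 (1.16 to 1.22), and among those with Y-linked UMIs alone (90 and 295 cells) it had 0.891 (0.874 to 0.908). Ftl1 kept its side in both, at 1.34 and 1.13, and so did Blvrb, at 1.46 and 1.20. Hmox1 had 1.08 (0.997 to 1.16) and 0.938 (0.877 to 1.003), which lie on opposite sides of 1.

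In fibroblasts, 4 members could be compared and 0 were past the fold, against 4.14% of 7466 genes higher and 5.56% lower. Hmox1 had a ratio of 1.28 (1.03 to 1.604) from 100 and 470 UMIs, Ftl1 1.27 (1.23 to 1.32), Fth1 1.18 (1.16 to 1.20) and Blvrb 0.962 (0.811 to 1.15). The fibroblast ratio of Hmox1 moved most with the choice of cells. It was 3.48 (1.74 to 8.16) among cells with Xist UMIs alone, where WT had 8 UMIs, and 1.56 (1.30 to 1.88) when cells that met several rules were counted in each.

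In endothelium, 3 members could be compared and 0 were past the fold, against 8.01% of 1748 genes higher and 4.0% (70 genes) lower. Fth1 had 1.08 (0.976 to 1.19), Ftl1 1.19 (1.02 to 1.38) and Blvrb 0.800 (0.468 to 1.46). All 6 WT Hmox1 UMIs of this class came from 1 of its 29 cells, so no ratio is read from them. In the 28 and 304 cells that met both the fibroblast and the endothelium rule, Fth1 had a ratio of 0.984 (0.917 to 1.06), Ftl1 1.08 (0.969 to 1.21) and Blvrb 1.13 (0.74999 to 1.79).

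**Figure D3:**
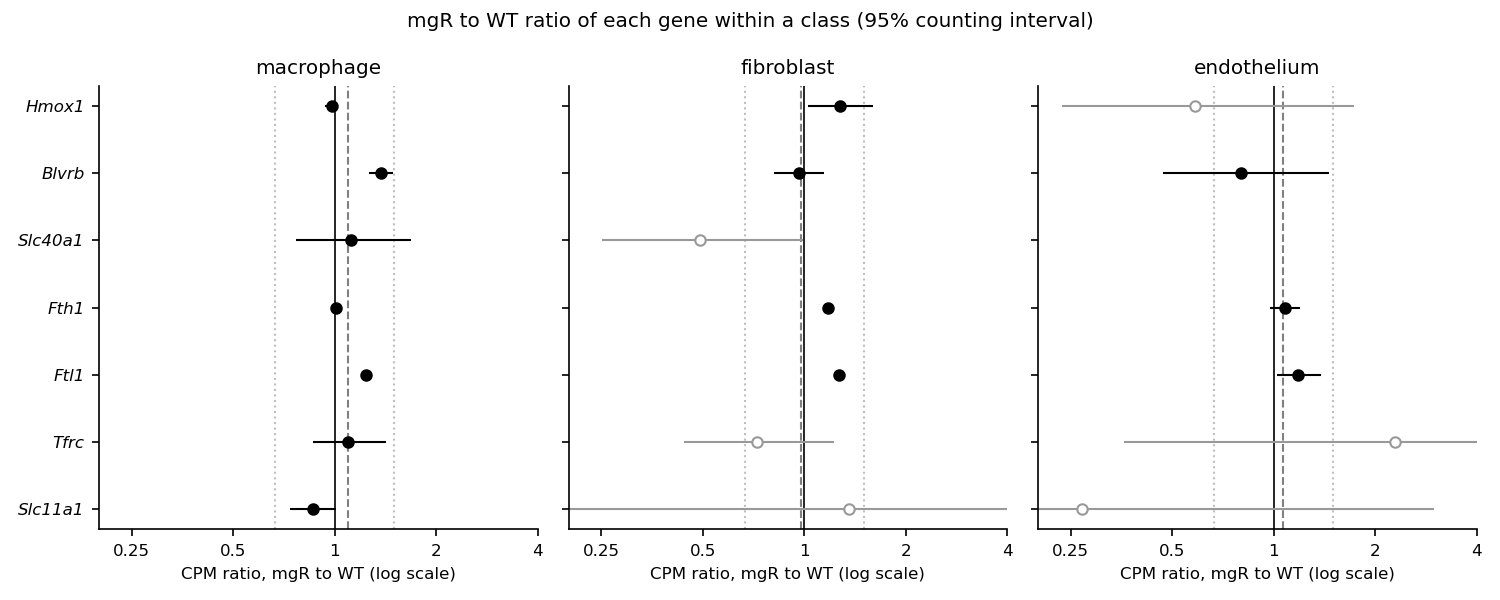
CPM ratio of mgR to WT (horizontal axis, log scale) for 7 genes (vertical axis) in macrophages, fibroblasts and endothelium, with 95% counting intervals, some of which run past the axis. Filled points had 100 or more UMIs; the dashed line is the median gene and the dotted lines mark 1.5-fold, which no filled point passes.

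Macrophages of the valve spanned 2 ranges that differed in iron genes. The first was set by 2 or more UMIs of Lyve1, Folr2 and Cd163, genes of tissue-resident macrophages, and the second by none of these and 2 or more UMIs of Cx3cr1 and Cd72. The first held 90 WT cells (40.2% of macrophages) and 1016 mgR cells (66.0%), the second 83 (37.1%) and 282 (18.3%), and the rest lay between, with 13 and 90 macrophages at exactly 1 UMI of the first set. These are ranges of a count and not cell types, and depth differed between libraries: its median was 6312 and 8759 UMIs in it, and 6364 and 8212 in the second.

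Hmox1 was higher in the Lyve1, Folr2 and Cd163 range. It had 2986 CPM in WT and 2054 CPM in mgR there, against 577 and 451 CPM in the Cx3cr1 and Cd72 range, which are ratios of 5.17 (4.60 to 5.83) and 4.55 (4.29 to 4.84). Blvrb had 586 and 709 CPM against 274 and 257, ratios of 2.14 (1.77 to 2.60) and 2.76 (2.54 to 2.99). The genes of the iron exporter and of the transferrin receptor lay on the same side. Slc40a1 had 27 and 305 UMIs in the first range and 1 and 5 in the second, and Tfrc had 95.1 and 73.9 CPM against 10.3 and 12.9, ratios of 9.21 (3.98 to 26.1) and 5.73 (4.02 to 8.45).

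Ferritin did not follow it. Fth1 was lower in the Lyve1, Folr2 and Cd163 range, at 17098 and 18570 CPM against 22878 and 23580, which are ratios of 0.747 (0.728 to 0.767) and 0.788 (0.780 to 0.795). Ftl1 was higher there, at 1.08 times (1.04 to 1.12) in WT and 1.29 times (1.27 to 1.31) in mgR. Slc11a1 had ratios of 1.25 (0.885 to 1.76) and 1.23 (1.07 to 1.43). Cutting the ranges on cells thinned to 2000 UMIs kept these sides: Hmox1 had 3312 and 2300 CPM against 500.0 and 413, and Fth1 16500.0 and 18441 against 24461 and 20306.

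**Figure D4:**
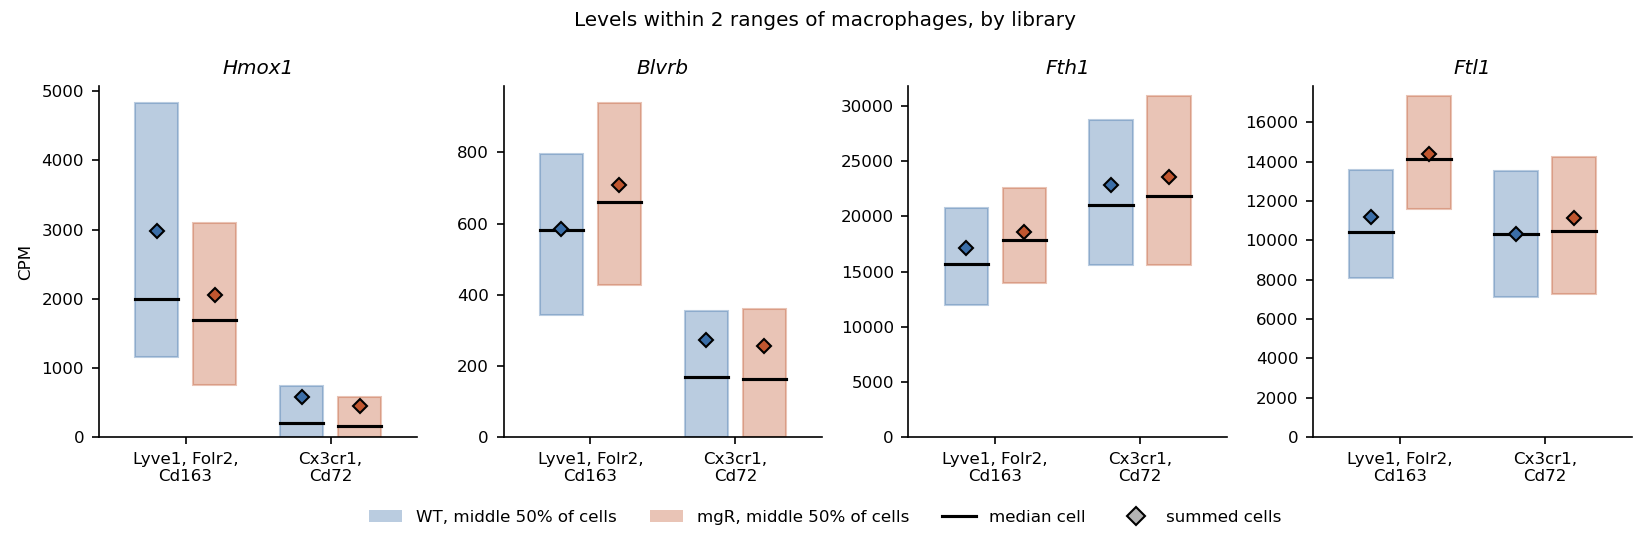
CPM (vertical axis, from 0, its own range in each panel) of 4 genes in the 2 ranges of macrophages (horizontal axis), by library. Boxes span the middle 50% of cells, the line is the median cell and the diamond is the level of the summed cells, which for Hmox1 lies well above the median in both ranges.

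Hmox1 within each range was lower in mgR although the pooled ratio was 0.978. The ratio was 0.688 (0.655 to 0.722) in the Lyve1, Folr2 and Cd163 range and 0.781 (0.691 to 0.886) in the Cx3cr1 and Cd72 range, where the median gene had 1.04 and 1.06, and 8.25% and 13.5% of genes had a ratio as low. It was 0.690 (0.628 to 0.758) and 0.678 (0.630 to 0.730) in first-range cells that held Xist but no Y-linked UMI and in those that held the reverse, and 0.871 (0.718 to 1.06) and 1.06 (0.845 to 1.34) in such cells of the second range. A few WT cells held many of the Hmox1 UMIs: the 10 leading WT cells had 34.3% and 57.9% of those of the ranges. Without the 10 leading cells of each library the ratios were 0.875 (0.825 to 0.929) and 1.27 (1.06 to 1.53). This cut took 10 of 90 and 83 WT cells but 10 of 1016 and 282 mgR cells. Such an unequal cut by itself raises the ratio, so it cannot show how much of the difference rests on few cells. The median cells of the first range had 1997 CPM in WT and 1694 CPM in mgR.

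Dissociation-stress genes (Fos, Jun, Hspa1a, Hspa1b, Dnajb1 and Egr1) were summed. They had 2066 CPM in WT and 1304 CPM in mgR in the first range, and 1092 and 810 CPM in the second. Over all macrophages, where the Hmox1 ratio was 0.978, they had 1526 and 1162 CPM. Fibroblasts had 3376 and 3298 CPM of these genes, with Hmox1 at 59.2 and 75.8 CPM. The part of the stress genes in the Hmox1 values was not tested. Haemoglobin transcripts, as a sign of red cell RNA, stood at 212 and 706 CPM in the first range, and at 157 and 3600 CPM in the second. Leaving out cells with 10 or more haemoglobin UMIs gave Hmox1 ratios of 0.688 and 0.787. Ftl1 within the ranges had 1.29 (1.26 to 1.32) and 1.08 (1.05 to 1.11), Fth1 1.09 (1.06 to 1.11) and 1.03 (1.01 to 1.05), and Blvrb 1.21 (1.09 to 1.35) and 0.940 (0.789 to 1.13). In second-range cells that held Xist but no Y-linked UMI, Fth1 had 1.26 (1.22 to 1.30) and Ftl1 1.18 (1.13 to 1.23). In those that held the reverse, they had 0.915 (0.885 to 0.947) and 0.946 (0.899 to 0.995). No direction is given for either chain in that range. In such cells of the first range, Fth1 had 1.30 and 1.02 (0.988 to 1.05) and Ftl1 1.40 and 1.21.

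Across single macrophages, the genes most like Hmox1 were F13a1, Apoe, Folr2, Selenop and Lyve1. Likeness was Pearson's r of log-scaled UMIs among 3288 genes, given as a description over 224 WT and 1539 mgR cells that share a library and a range of depths. For Hmox1 it was 0.66 in WT and 0.53 in mgR with F13a1 and 0.51 and 0.50 with Lyve1. The genes most like Blvrb were Serpinb6a (0.47 and 0.48), Gas6, Folr2, Selenop and Apoe, and those most like Tfrc included Lyve1 (0.36 and 0.35), F13a1, Folr2 and Cbr2. Folr2 and Lyve1 were also used to set the range above.

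The ferritin chains had other neighbours. Ftl1 was most like Hmox1, at 0.38 and 0.47, ahead of Fth1 at 0.35 and 0.33, Cstb, Prdx1 and Apoe. Fth1 was most like Ftl1, followed by Bcl2a1b (0.31 and 0.28), Cd14, Lgals3 and Bcl2a1d, and its r with Hmox1 was 0.0059 in WT and 0.10 in mgR. Slc11a1 had no neighbour above 0.15 in both libraries, which in counts this sparse is no pattern.

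Other iron and haem genes were taken from a list of 48 that the choice of members did not include. In macrophages 37 of these reached 100 UMIs, 4 were past the fold as higher in mgR, 4 as lower and 29 neither, with a median ratio of 1.08 beside 1.10 over all genes. Over all macrophage genes 9.49% were higher and 4.40% lower, so the higher count lies near that share, and no more is read from either count. The higher ones were Blvra, the other biliverdin reductase, at 2.03 (1.61 to 2.59), Cp, the ferroxidase ceruloplasmin that helps iron leave cells, at 1.64 (1.25 to 2.19), Slc25a28, a mitochondrial iron importer, at 1.58 (1.18 to 2.14), and Hfe, a regulator of hepcidin, at 1.51 (1.24 to 1.86). Cp tracked the ranges, with 28.0 times as much in the first as in the second range in mgR, and its ratio within the first range was 1.04 (0.784 to 1.40).

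The lower ones were Spic, a transcription factor of iron-recycling macrophages, at 0.343 (0.290 to 0.407), Slc39a14, a metal ion importer, at 0.405 (0.308 to 0.540), Slc7a11, the cystine importer, at 0.457 (0.384 to 0.546), and Srxn1, sulfiredoxin, at 0.622 (0.522 to 0.744). Their WT UMIs were concentrated, since 10 of 224 cells held 49.5% of those of Spic and 58.8% of those of Slc7a11. Spic had 184 UMIs in WT (127 CPM) and 587 in mgR (43.6 CPM), and its ratio was 0.323 (0.253 to 0.414) among cells with Y-linked UMIs alone but 0.842 (0.542 to 1.38) among cells with Xist UMIs alone. Cd163, the receptor for haemoglobin bound to haptoglobin, had 0.966 (0.858 to 1.09) over all macrophages and 0.592 (0.525 to 0.670) within the first range, which it helped to set. Slc48a1, which moves haem out of the lysosome, had 1.13 (0.859 to 1.5005).

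By role in macrophages, where 9.49% of all genes were higher and 4.40% lower, 7 genes of haem synthesis were compared and 0 were past the fold, as were 0 of 3 genes of ferritin handling (Ncoa4, Pcbp1 and Pcbp2, at 1.10, 0.885 and 1.03). Of the 5 compared targets of the oxidative stress factor NRF2, which also drives Hmox1 and the ferritin genes, 2 were lower (Srxn1 and Slc7a11) and 3 neither, among them Gclm at 1.38 (1.07 to 1.80) and Txnrd1 at 0.785 (0.730 to 0.845). In fibroblasts, where 5.56% of all genes were lower, 31 of the 48 were compared, and Srxn1 alone was past the fold, lower at 0.490 (0.376 to 0.641), but at 1.33 (0.697 to 2.85) among fibroblasts with Xist UMIs alone. In endothelium, where 8.01% of all genes were higher and 4.0% lower, 5 were compared and 0 were past it.

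**Figure D5:**
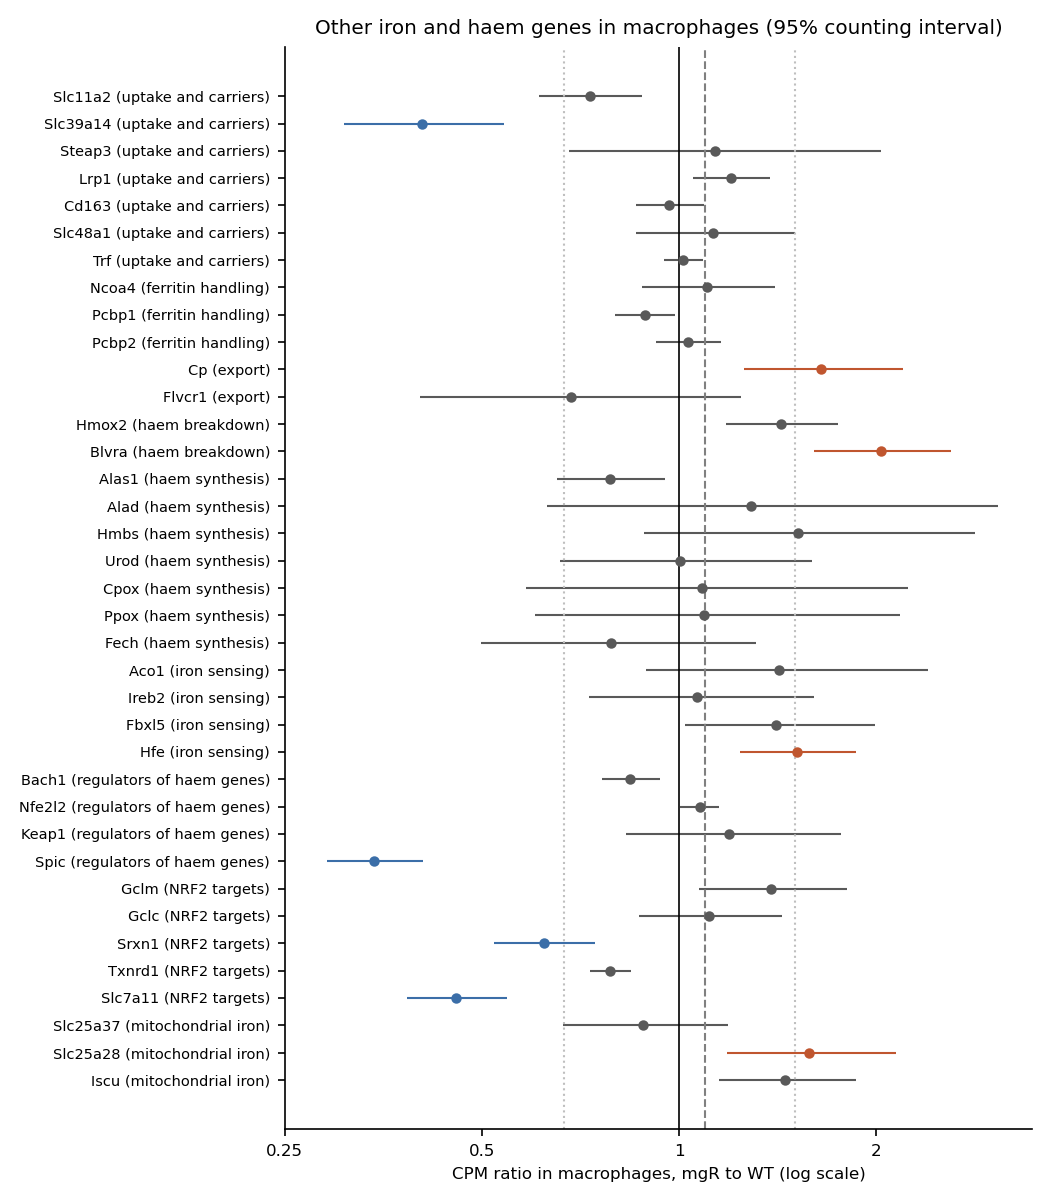
CPM ratio of mgR to WT in macrophages (horizontal axis, log scale) for the 37 compared genes of the iron and haem list (vertical axis, with the role of each), with 95% counting intervals. Orange points are the 4 higher and blue points the 4 lower genes; the dashed line is the median gene at 1.10 and the dotted lines mark 1.5-fold.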

How the data were processed

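Mitral valve cells of WT and mgR mice (1 library each) were profiled with 10x Genomics 3-prime chemistry. The authors made the deposited counts, whole-number UMIs per gene and barcode, with Cell Ranger 7.1.0 on mm10 (submitters' processing notes). Depth was 5381844 UMIs in WT and 28215539 in mgR.

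Barcodes with 200 to 5000 genes and at most 10% mitochondrial UMIs were kept, and classes were set by marker UMIs as stated with the results. UMIs were summed per class and scaled to CPM. Levels have exact Poisson intervals, CPM ratios exact conditional binomial intervals and shares Clopper-Pearson intervals, all at 95% and for counting error only. With 1 library per genotype no test was run. The interval and fold rule was tested on simulated data. Shares were also taken after thinning cells to 2000 UMIs. Cells marked by Scrublet (scanpy 1.11.5), 7 in WT and 51 in mgR, were kept, and an alternative left them out. Sequences and positions came from GENCODE M21 on GRCm38. Python 3.11.15, numpy 2.4.6, scipy 1.17.1, pandas 2.3.3 and matplotlib 3.10.9 were used.

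The members, marker lists and iron and haem list were chosen with earlier results of these data known. The genes named are the members, genes of the list past the fold in a class or needed beside a member, and the 5 genes most like each member with a UMI in at least 20% of macrophages of both libraries, by the lower of both libraries' Pearson's r. One gene among those most like Tfrc is not reported here. Ftl1-ps1 and the neutrophil values were chosen after seeing the data. Alternatives changed the class rule and thresholds, mitochondrial limit, depth, pooling, scaling, leading cells, red cell RNA, doublets, sex-linked transcripts, fold and count minimum.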

Additional observations from a re-analysis of the deposited data

Results flagged for a closer look

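The barcodes left out by the filters, 229 in WT and 364 in mgR, held member UMIs that entered no comparison, and haemoglobin made up 91.4% and 75.6% of their UMIs. In them Hmox1 had 7.46 CPM in WT and 90.4 CPM in mgR, a ratio of 12.1 (5.43 to 33.6) from 6 and 139 UMIs. Fth1 had 713 and 2130 CPM, a ratio of 2.99 (2.73 to 3.27), and Ftl1 had 1280 and 2184 CPM, a ratio of 1.71 (1.59 to 1.83). These were singled out as signals above the control library in data that the comparisons did not use. The barcodes left out also differed in kind. In WT, 192 had too few genes, 0 too many and 38 too high a mitochondrial share. In mgR these were 253, 9 and 116, and a barcode could fail more than 1 limit. The ratios were not split by limit, and they depend on the unequal haemoglobin share. Per UMI of all other genes, a scaling chosen after seeing the data, Hmox1 had a ratio of 4.26 (1.91 to 11.8). By this scaling Fth1 had 1.05 (0.961 to 1.15), with 1 inside its interval, and Ftl1 changed sides of 1, at 0.60 (0.559 to 0.644). Blvrb was not singled out and lay on the other side of 1 from Hmox1. It had 168 CPM in WT and 80.0 CPM in mgR, and a ratio of 0.168 (0.130 to 0.216) by this scaling. Red cells that passed the filters held Blvrb at 201 and 504 CPM and Ftl1 at 1730 and 1415 CPM. The scaling drops haemoglobin but keeps other transcripts of red cells. Their part in these ratios was not tested, so no direction is read for Blvrb or Ftl1.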

How the results depend on the processing

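No paired analysis was possible because each genotype had 1 library. In macrophages the count of members past 1.5-fold was 0 under each alternative run. In fibroblasts it was 1 in place of 0 when cells were counted in each class they met (Hmox1, 1.56) and in cells with Xist UMIs and no Y-linked UMI (Hmox1, 3.48). In endothelium it was 1 in place of 0 in those Xist cells (Ftl1, 1.58), in cells with Y-linked UMIs and no Xist (Fth1, 1.86), with doubled class thresholds (Blvrb, 0.622) and without the 5 leading cells (Ftl1, 1.67). The share of endothelial genes past the fold was 12.01% among genes with 100 or more UMIs and 6.81% with a minimum of 10. The causes were not tested. Leaving out 5 leading cells removes a larger part of each smaller WT class, which by itself raises a ratio. Of 214 mgR to WT ratios of members under alternatives, 179 stayed within the counting interval of the reported value and 35 left it. Of 78 ratios of macrophages to another class, 54 stayed and 24 left it, and 0 of the called ones changed sides of 1. In macrophages the ratio ran from 0.893 to 1.10 for Hmox1, 0.891 to 1.19 for Fth1, 1.13 to 1.34 for Ftl1, 1.20 to 1.47 for Blvrb and 0.668 to 1.61 for Slc40a1. Members 2-fold higher in macrophages numbered 7 against fibroblasts, with 6 as the lowest alternative, and 6 against endothelium, with 5 to 7. Taking the cells that met both rules as endothelium, and the splits within the macrophage ranges, were chosen after seeing the data. Depth limits Slc40a1, Tfrc and Hp outside their main cells, and the 29 WT endothelial cells limit that class.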

Other observations

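Monocytes, 12 cells in WT and 70 in mgR, had opposite values of both ferritin chains. Fth1 had 9039 CPM in WT and 15465 CPM in mgR, a ratio of 1.71 (1.57 to 1.87), and Ftl1 had 5437 and 3152 CPM, a ratio of 0.580 (0.514 to 0.656). In WT the 10 leading of 12 cells held nearly all of these UMIs, so each cell weighs heavily, and there was no replicate check.

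Slc40a1 in neutrophils had 521 CPM in WT and 211 CPM in mgR, a ratio of 0.406 (0.201 to 0.808) from 21 and 17 UMIs in 8 and 10 cells. After thinning to 2000 UMIs, 7 of 10 WT and 6 of 15 mgR neutrophils held a UMI of it. Haemoglobin stood at 645 and 76499 CPM in these neutrophils before thinning, and its part in the ratio was not tested.

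For 3 of the 4 members compared in fibroblasts, both sex-linked splits (Xist, then Y-linked) lay on 1 side of 1 with intervals that left out 1. Hmox1 had 3.48 (1.74 to 8.16), from 8 WT UMIs, and 1.497 (1.13 to 1.99). Fth1 had 1.35 (1.30 to 1.40) and 1.13 (1.10 to 1.17), and Ftl1 1.19 (1.12 to 1.27) and 1.38 (1.30 to 1.46). Blvrb had 0.965 (0.714 to 1.33) and 0.730 (0.550 to 0.973), and the first interval held 1.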
